A study of Ovis aries with 6 samples.

Results

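The 7 mature miRNAs of the miR-193 and miR-365 families were described in longissimus muscle, the long muscle of the back, of sheep. QHMM stands for the breed Qianhua Mutton Merino and STH for Small Tail Han. The members were taken by name: every entry called miR-193, miR-193a, miR-193b, miR-365, miR-365a or miR-365b, alone or with a suffix such as the arm, after the species prefix was removed. This gave 13 rows of 11161 in the count table, and 7 of 10430 names once each name was held to its most counted row. The study sequenced small RNA of 3 QHMM and 3 STH libraries from sheep kept under natural conditions, and the labels name no treatment other than breed. The labels give neither age nor sex, nor do they tie a library to an animal, and the p-values therefore reflect only how far these libraries varied.

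A miRNA is cut from a hairpin precursor whose 5p and 3p arms can each give a mature strand, and bases 2 to 8 of that strand, the seed, select most of its targets. In mammals the miR-193b hairpin lies next to that of miR-365-1, and the miR-193a hairpin next to that of miR-365-2, while both miR-365 hairpins give the same miR-365-3p. The pair miR-193b and miR-365 is known from work on brown fat cells, which share a precursor with muscle, and miR-193b from the control of cell growth through cyclin D1.

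The mature sequences are shown because the seeds decide which family members can share targets, and because their likeness decides which rows can share reads. They are printed 5′ to 3′ as deposited, as DNA letters, with the seed in capitals.
miR-193a-3p: aACTGGCCtacaaagtcccagt
miR-193b-3p: aACTGGCCcacaaagtcccgc
miR-193a-5p: tGGGTCTTtgcgggcaagatga
miR-193b-5p: cGGGGTTTtgagggcgagatg
miR-365-3p: tAATGCCCctaaaaatcctta
miR-365-1-5p: aGGGACTTttgggggcagatgtg
miR-365-2-5p: gAGGGACTttcaggggcagctg
The 3p strands of miR-193a and miR-193b shared 1 seed and were identical at 18 of 21 positions compared. They differed by T9C, A20G and G21C, with the base of miR-193a-3p first and positions counted from 1 at the 5′ end. The 5p strands of the same pair were identical at 16 of 21 positions, and T5G and C6T fell in the seed, so that their seeds differed. The 5p strands of the miR-365 hairpins matched at 18 of 21 positions once miR-365-2-5p was shifted by 1 base. With this shift of the start their seeds differed too. The seed of miR-365-3p was found in no row outside its own name.

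Both families were clearly present in muscle of either breed, and nearly all of their counts came from 2 strands. Levels are given as CPM, counts out of 1000000 of the same library, in which a name has 1 row. miR-193b-3p had a mean of 2627 ± 871 CPM (SD, n = 6), which was rank 40 of all names, and miR-365-3p had 2078 ± 1379.7 CPM (SD, n = 6), rank 46. The total behind the CPM leaves out all but the most counted row of each name. The families together took 0.284% to 0.809% of this total, depending on the library. Of the counts of all members, miR-193b-3p made up 54.5% ± 6.72 (SD, n = 6) and miR-365-3p 38.6% ± 8.76 (SD, n = 6). The seed ACTGGCC, carried by miR-193a-3p and miR-193b-3p, was at rank 26 of 6116 seeds by total count, and AATGCCC of miR-365-3p at rank 35.

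The other strands were far less abundant. miR-193a-5p had 169 ± 33.2 CPM (SD, n = 6), miR-193b-5p 78.3 ± 21.6 CPM, miR-193a-3p 49.8 ± 16.3 CPM, miR-365-1-5p 12.4 ± 3.88 CPM and miR-365-2-5p 1.36 ± 0.479 CPM. From miR-365-3p downwards this order was the same in 6 of 6 libraries. At the top, miR-193b-3p was above miR-365-3p in 5 libraries and below it in QHMM replicate 3, and their means lay within their spread. The means of miR-193b-5p and miR-193a-3p were 28.4 CPM apart, not far above their SD, although each library gave the same order.

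**Figure D1:**
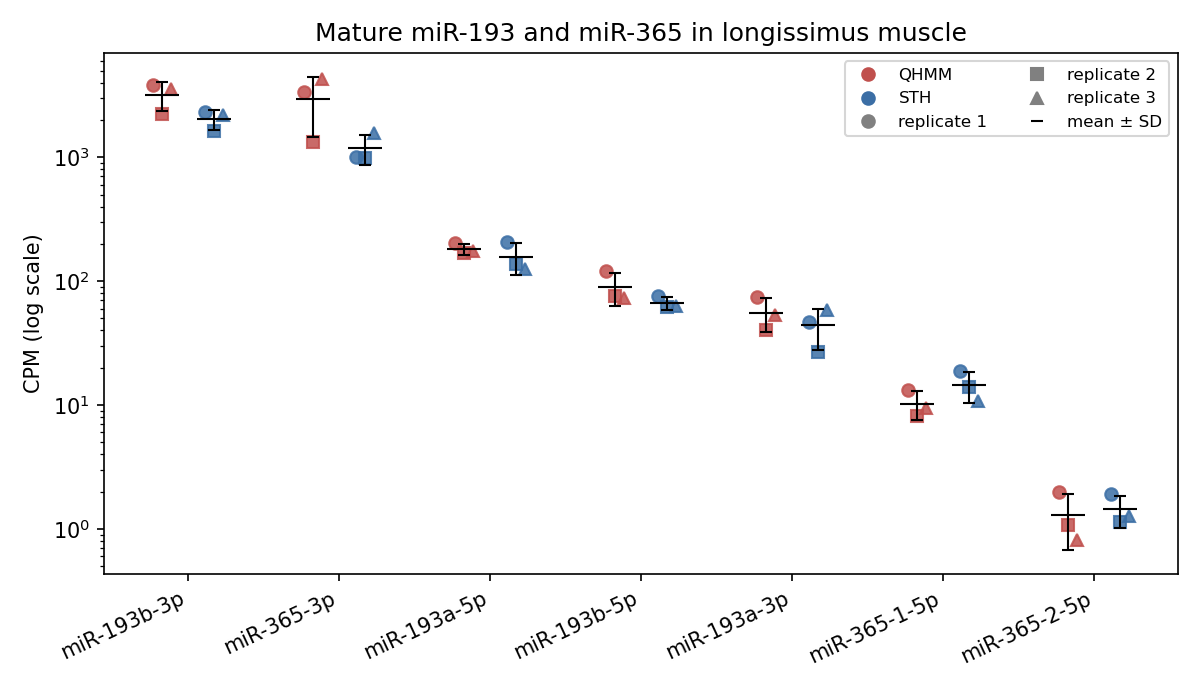
CPM (log scale) of the 7 mature miRNAs in longissimus muscle, with single libraries as points (marker shape gives the replicate) and the breed mean and SD (n = 3) in black. In each library miR-193b-3p and miR-365-3p are the highest, and for each miRNA the ranges of QHMM and STH overlap.

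The depth of the libraries was 8062231 to 11282332 counts over all rows, and 5572865 to 7930202 counts with 1 row per name. The tissue label was checked against muscle miRNAs: 5 of 5 fibre markers were found, and with miR-1 read from its main row, named miR-1b, they summed to 517816 to 546371 CPM in QHMM and 450124 to 536352 CPM in STH. Summed blood markers did not overlap between the breeds, and 1 library stood apart in those of red blood cells. The sums were not tested, and 17.2% of all names tested did not overlap either. The 3 red blood cell markers, none of them at 0, summed to 83743 CPM in QHMM replicate 3, to 18885 and 19771 CPM in the other QHMM libraries, and to between 7181 and 13702 CPM in STH, without overlap. miR-451 and miR-144 separated the breeds in this way, and miR-486 overlapped. The 4 leukocyte markers, none at 0, summed to 1552 to 1815 CPM in QHMM and 1060 to 1321 CPM in STH, without overlap. Of these miR-142-3p alone did not overlap (405 to 606 CPM in QHMM, 218 to 282 CPM in STH), miR-150 had a higher mean in QHMM, and miR-223-3p and miR-155-5p had lower means. The 5 epithelium markers summed to 3.95 to 28.6 CPM in QHMM and 2.75 to 18.6 CPM in STH, and the vessel wall list (with miR-126 read from its main row, miR-126a-3p) to 42347 to 67284 CPM and 58822 to 72020 CPM. The fibroblast and cartilage markers gave 4095 to 4414 CPM in QHMM and 3896 to 6727 CPM in STH. Of 4 markers of liver, pancreas and neurons 3 were found, with sums of at most 4.11 CPM in QHMM and 4.79 CPM in STH.

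The comparison of breeds asks whether muscle of a meat breed and of an indigenous breed differs in these miRNAs. In edgeR's quasi-likelihood test over 1274 names, 6 of the 7 members could be tested, and miR-365-2-5p fell under the filter on low counts. None of the 6 passed an adjusted p of 0.05, where 2.2% of all names tested did (0.314% higher in QHMM and 1.88% higher in STH). Of the 6, 2 had an unadjusted p under 0.05, against 13.7% of all names, and DESeq2 called 1 member, against 3.86% of the names it gave an adjusted p. The CPM of QHMM and STH overlapped for each of the 6, while they did not overlap for 17.2% of the names tested (8.48% with QHMM above and 8.71% with STH above). The log2 fold change, QHMM over STH, was above 0 for 5 of the 6, with a median of 0.37, while 52.3% of all names lay above 0, with a median of 0.031.

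Among the 6, the largest difference was in miR-365-3p. It had 3338, 1317 and 4257 CPM in QHMM replicates 1, 2 and 3, from 25191, 7339 and 31683 counts. In STH replicates 1, 2 and 3 it had 1012, 983 and 1560 CPM, from 7409, 6069 and 12368 counts. QHMM replicates 1 and 3 were above every STH library, and QHMM replicate 2 was below STH replicate 3. The fitted log2 fold change was 1.29 (standard error 0.35, 95% interval 0.54 to 2.05), a 2.45-fold higher mean in QHMM, with an adjusted p of 0.0889 from edgeR. In whole tissue, more cells that make a miRNA and more of it per cell cannot be told apart. This value was near the threshold and fell on either side of it: the adjusted p was 0.0346 with DESeq2, 0.00012 with no filter on low counts and 0.0107 without QHMM replicate 2, and it ran up to 0.327 over the other alternatives. Without QHMM replicate 3, the library rich in red blood cell miRNAs, the log2 fold change was 0.89 (adjusted p = 0.294 from edgeR). The summed red blood cell and leukocyte markers were also higher in each QHMM library than in each STH library, although the leukocyte markers did not all move one way, and their part in the result was not tested.

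Summed over each family, miR-365 had 2982 ± 1505 CPM in QHMM and 1201 ± 322 CPM in STH (SD, n = 3), and miR-193 had 3537 ± 906 CPM and 2312 ± 419 CPM.

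miR-193b-3p had the second largest difference. It had 3865, 2239 and 3526 CPM in QHMM replicates 1, 2 and 3, and 2325, 1619 and 2186 CPM in STH replicates 1, 2 and 3. As with miR-365-3p, QHMM replicates 1 and 3 were above every STH library, and QHMM replicate 2 lay among the STH values. The log2 fold change was 0.63 (standard error 0.23, 95% interval 0.14 to 1.13), with an unadjusted p of 0.0161 and an adjusted p of 0.225 from edgeR. The passenger strand of the same hairpin, miR-193b-5p, had 120, 75.4 and 73.5 CPM in QHMM and 75.8, 61.4 and 63.2 CPM in STH. Here QHMM replicate 1 alone was above the STH range, and the log2 fold change was 0.40 (95% interval -0.20 to 1.01, adjusted p = 0.568).

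Of the 6 members tested, the strands of miR-193a showed the smallest differences. miR-193a-3p had 73.9, 40.0 and 53.5 CPM in QHMM replicates 1, 2 and 3 and 46.4, 26.6 and 58.6 CPM in STH, with a log2 fold change of 0.33 (95% interval -0.36 to 1.03, adjusted p = 0.695 from edgeR). For miR-193a-5p the QHMM libraries held 202, 168 and 174 CPM and the STH libraries 209, 138 and 126 CPM, and its log2 fold change was 0.20 (95% interval -0.41 to 0.80, adjusted p = 0.79). STH replicate 1 held the highest value of miR-193a-5p in all 6 libraries. These intervals still allow a change of either sign.

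The 5p strands of miR-365 showed no higher mean in QHMM. miR-365-1-5p had 13.3, 8.07 and 9.40 CPM in QHMM replicates 1, 2 and 3 and 18.8, 13.9 and 10.7 CPM in STH. Its log2 fold change was -0.52 (95% interval -1.24 to 0.20, adjusted p = 0.521 from edgeR), and QHMM replicate 1 lay within the STH range. miR-365-2-5p had 15, 6 and 6 counts in QHMM and 14, 7 and 10 counts in STH. By counting error alone, 6 counts have a 95% interval of 2.20 to 13.1 (exact Poisson), so that the value of a single library is imprecise. miR-365-2-5p was under the filter on low counts, and with no filter its log2 fold change was -0.093 (95% interval -1.25 to 1.06, adjusted p = 0.991 from edgeR). This interval allows a change of either sign.

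**Figure D2:**
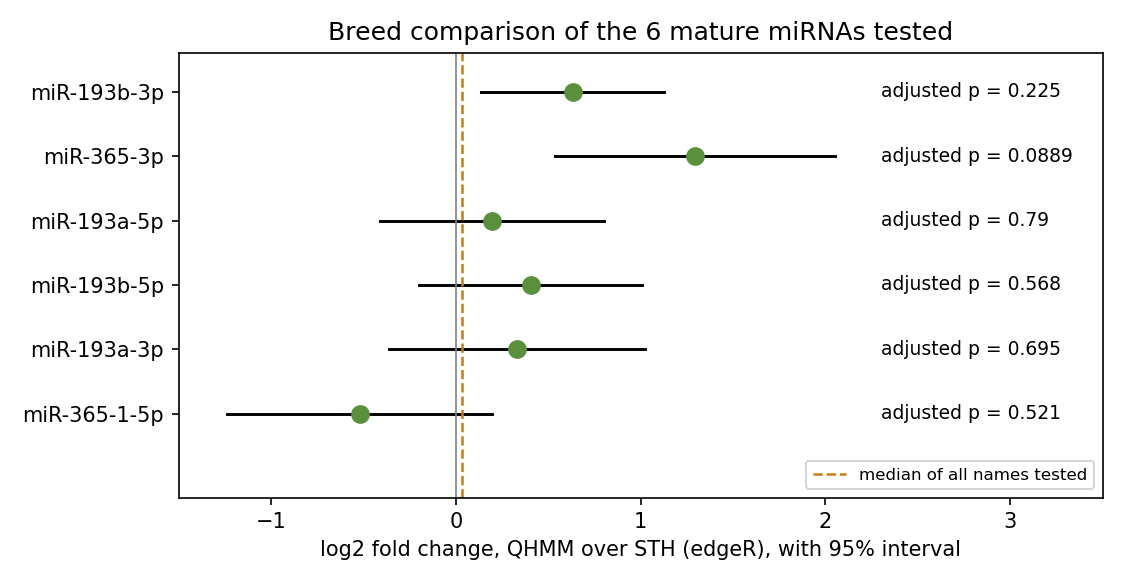
Log2 fold change, QHMM over STH, of the 6 mature miRNAs tested with edgeR (points) with its 95% interval (lines) and the adjusted p beside each. The dashed line marks the median of all 1274 names, 0.031. The interval of miR-365-3p runs from 0.54 to 2.05, and no adjusted p is under 0.05.

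By the deposited counts, the preferred strand differed between the miR-193 hairpins. For miR-193b the 3p strand was counted 26.3 to 47.9 times as often as the 5p strand. For miR-193a the order was the reverse: the 5p strand exceeded the 3p strand 2.15 to 5.19 times, in 6 of 6 libraries. The 3p strands of miR-193a and miR-193b were identical at 18 of 21 positions. How a read matching both was counted is not given, so the miR-193a ratio may hold misplaced reads. By these counts, the shared seed ACTGGCC came almost wholly from miR-193b. Its 3p strand was counted 37.2 to 65.9 times as often as that of miR-193a in the same library. None of these ratios differed between breeds beyond the spread of the libraries (exact permutation test, two-sided, p = 0.50 for miR-193b, p = 0.80 for miR-193a and p = 0.40 for the ratio of the 3p strands). With 3 against 3 libraries no p below 0.10 is possible, and 5 ratios were tested, with adjusted values of 0.50 to 0.80.

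The ratio of miR-365-3p to miR-365-1-5p, the more counted of the miR-365 5p strands, was the exception in its range. In QHMM it was 251, 161 and 449 (replicates 1, 2 and 3). In STH it was 53.5, 70.2 and 145. Each QHMM library was above each STH library. The log2 ratio was 8.04 ± 0.74 (SD, n = 3) in QHMM and 6.35 ± 0.74 (SD, n = 3) in STH, a difference of 1.69, with p = 0.10 in the exact two-sided permutation test, the smallest p this design allows, and 0.50 after adjustment. The difference lay between 1.30 and 2.10 with each library left out. The 5p counts behind this ratio were 45 to 138 per library. Since the 3p strand comes from both miR-365 hairpins, the ratio does not describe 1 hairpin.

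For miR-365-3p over miR-193b-3p the QHMM libraries gave ratios of 0.864, 0.588 and 1.21, and the STH libraries 0.435, 0.607 and 0.713. QHMM replicate 2 fell within the STH range, and the difference of the log2 ratio was 0.57 (exact permutation test, two-sided, p = 0.30, adjusted 0.625). With 3 against 3 libraries this test can give no p below 0.10. It therefore cannot decide whether the fold changes of miR-365-3p and miR-193b-3p differ.

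**Figure D3:**
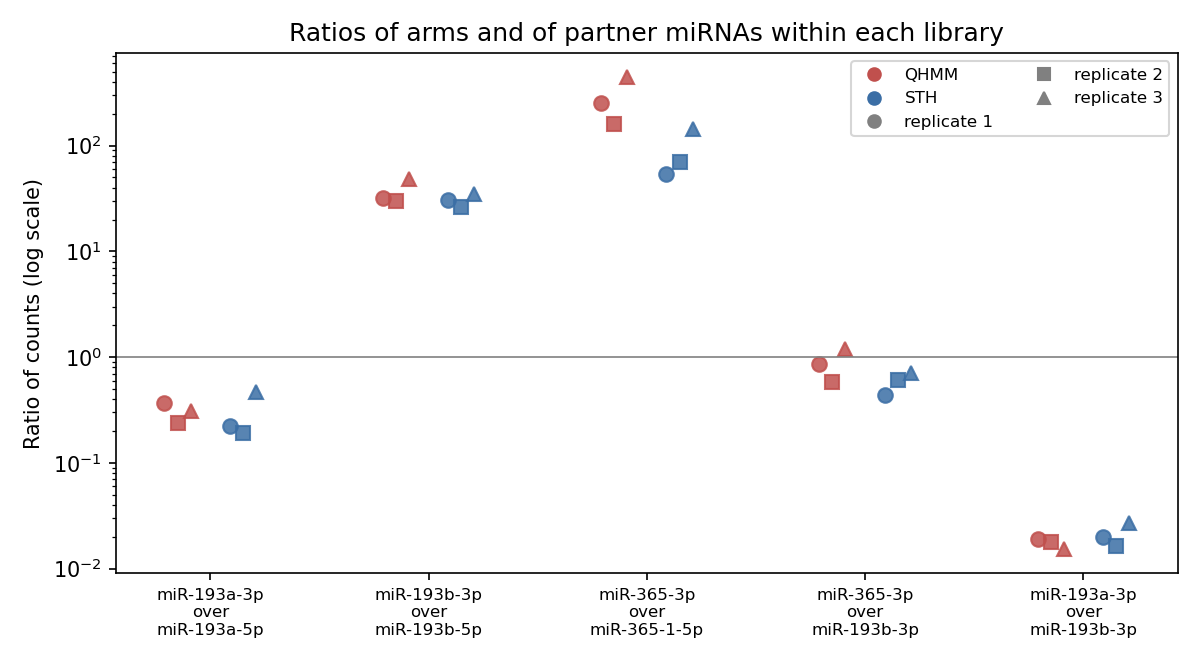
Ratio of counts (log scale) within each library for the 5 pairs tested, with QHMM in red, STH in blue and marker shape for the replicate; the grey line marks a ratio of 1. miR-193b lies above 1 and miR-193a below 1 in every library, and for miR-365-3p over miR-365-1-5p the QHMM points, 161 to 449, lie above the STH points, 53.5 to 145.

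Both miR-365 hairpins were represented by their own 5p strand, since these strands differ in sequence. miR-365-1-5p, from the hairpin that neighbours miR-193b in mammals, had 524 counts over the 6 libraries, and miR-365-2-5p, from the hairpin that neighbours miR-193a, had 58. The ratio of the summed counts was 9.03, and it lay between 6.67 and 12.3 in single libraries, where miR-365-2-5p had as few as 6 counts. The breeds overlapped in this ratio, at 6.67, 7.5 and 11.7 in QHMM and 9.86, 12.3 and 8.5 in STH. In the table, miR-365-3p and miR-365-2-5p stand at a predicted locus of chromosome 11 and both strands of miR-193b at 1 of chromosome 24, in the build Oar_v3.1 named by the submitters. Start and end are not given in the rows, and no sheep genome was used here.

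Each member was counted mainly in 1 row. The row kept for miR-193b-3p held 112245 counts and the other row of this name 1, and for miR-365-3p the rows held 90059, 13 and 3. The sequence of miR-193a-3p stood letter for letter under its rat and its human name, with 2148 and 42 counts, so that identical rows did not hold equal counts. For miR-193a-5p the rat row had 7136 counts, the identical mouse row 83 and the human row, whose sequence is not identical, 537. Outside the families, the seed of miR-193b-3p was found in 1 other row, a predicted locus of chromosome 2 with 35 counts, and the other seeds in rows of at most 8 counts.

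The strands varied unequally among libraries. Relative to its own mean, miR-365-3p ran from 0.473 in STH replicate 2 to 2.05 in QHMM replicate 3, a 4.33-fold range. miR-193b-3p ran over 2.39-fold and miR-193a-5p over 1.66-fold. QHMM replicate 1 was above the mean for all 6 members plotted, and STH replicate 2 was below it for all but miR-365-1-5p. QHMM replicate 3 had the highest miR-365-3p, while its miR-193b-5p and miR-365-1-5p were below their means.

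**Figure D4:**
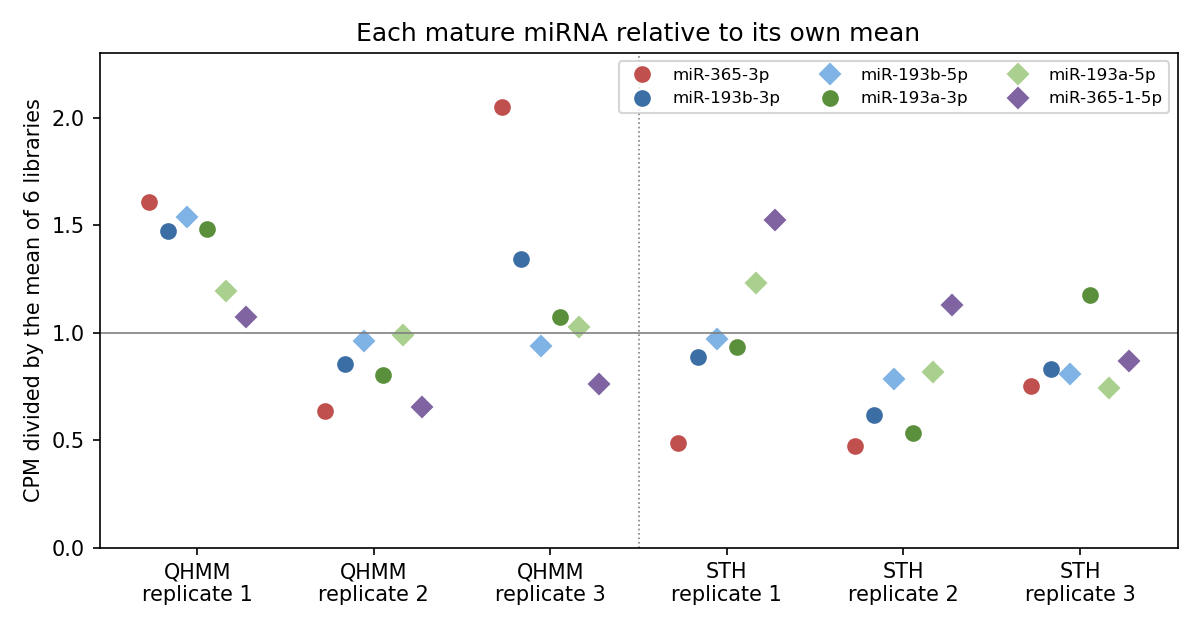
CPM of 6 mature miRNAs divided by the mean of the 6 libraries, by library (circles, 3p strands; diamonds, 5p strands; the grey line marks the mean). miR-365-3p is at 1.61 and 2.05 in QHMM replicates 1 and 3 and at 0.473 to 0.751 in the STH libraries. QHMM replicate 2, at 0.634, lies within this STH range. miR-365-1-5p has its highest value, 1.52, in STH replicate 1.

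Among 304 other miRNA names with a mean of at least 10 CPM, the pattern most like that of miR-193b-3p over the 6 libraries was shown by miR-324-3p (Pearson r of log2 CPM 0.99), miR-615-3p (0.99) and miR-148b-3p (0.97). miR-148b-3p, of the miR-148 and miR-152 family, had 50.1, 40.2 and 49.6 CPM in QHMM and 35.9, 30.6 and 37.1 CPM in STH. Most like miR-365-3p were miR-6087 (0.99), miR-3141 (0.98) and miR-106b of a growth-related cluster (0.96). miR-106b, the most abundant of these, had 1440, 1033 and 1783 CPM in QHMM replicates 1, 2 and 3 and 1081, 957 and 1092 CPM in STH, so that QHMM replicate 2 again lay within the STH range. The 2 leading members had a likeness of 0.91 to each other. The median over the 304 names was 0.31 for miR-193b-3p and 0.14 for miR-365-3p. These values are descriptions over 6 points that share library and depth, and the names were picked as the highest of many. Several of these names had low means, near the limit of 10 CPM. The means were 19.6 CPM for miR-324-3p, 13.6 CPM for miR-615-3p, 19.6 CPM for miR-6087 and 11.6 CPM for miR-3141.

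Other miRNAs linked to fat cells were counted against the same shares of all names. Of 20 entries of a list of miRNAs linked to fat cell formation and brown fat, 18 were found by name and 17 tested. Each entry was read from its most counted name, which for some was a strand of low count. miR-130a was read as miR-130a-5p (1.81 CPM) and miR-130b as miR-130b-5p (24.0 CPM). None passed in edgeR (2.2% of all names), 1 had an unadjusted p under 0.05 (13.7% of all names) and DESeq2 called 0. Their median log2 fold change was -0.044, and 8 of 17 lay above 0 (52.3% of all names). The most abundant entries by name were miR-26a (36419 ± 2972 CPM in QHMM, 41923 ± 6064 CPM in STH, SD, n = 3), miR-143 (10988 ± 1353 and 12857 ± 1960 CPM) and miR-30c (12871 ± 1724 and 10806 ± 1219 CPM). miR-107, which is linked to insulin sensitivity, gave the unadjusted p under 0.05, with a log2 fold change of 0.60 and an adjusted p of 0.355 from edgeR. The sequence of miR-378 stands under the name miR-3557-5p, with 25770 CPM and a log2 fold change of -0.098 (adjusted p = 0.885).

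Of 21 entries linked to muscle cell growth and differentiation, 20 were tested and 1 passed (2.2% of all names), while 3 had an unadjusted p under 0.05 (13.7% of all names). The median log2 fold change was -0.011. Here too some entries were read from a strand of low count, such as miR-133a-5p (5.34 CPM) and miR-133b-5p (21.2 CPM). DESeq2 called 2 entries (3.86% of the names it gave an adjusted p), and the breeds did not overlap for 5 of 20 (17.2% of all names). The entry called by edgeR was miR-208b-3p, which lies in the gene of slow myosin, with 147 ± 40.4 CPM in QHMM and 60.2 ± 4.96 CPM in STH (SD, n = 3) and a log2 fold change of 1.27 (adjusted p = 0.0419 from edgeR). miR-499-5p had a larger log2 fold change of 1.35 (adjusted p = 0.0782 from edgeR). Its levels were 2451 ± 1057 CPM in QHMM and 926 ± 292 CPM in STH (SD, n = 3), without overlap. No entry passed with upper-quartile factors, with the replicate block, or without QHMM replicate 3 or any 1 STH library. The most abundant entries by name were miR-133, with a log2 fold change of 0.43 (adjusted p = 0.329), miR-206-3p with -0.27 (adjusted p = 0.582) and miR-29a with 0.21 (adjusted p = 0.694). The main row of miR-1, named miR-1b, had 0.014 (adjusted p = 0.979).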

How the data were processed

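Small RNA cut from a gel was made into single-end libraries with an Ion Total RNA-Seq kit. What the authors deposited is 1 table of raw counts of reads, not normalized, with a row for each mature sequence and a column for each library. Among the submitters' processing notes are the genome build Oar_v3.1 and the tool DESeq. Not given in the sources used here are the aligner, the miRNA caller and how a read with several matches was counted, so that near-identical sequences may share reads.

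Where a name had several rows (450 names), its most counted row was kept, and CPM were computed over these rows. QHMM and STH were compared by edgeR 4.0.16 under R 4.3.3 (robust quasi-likelihood test, no covariates, filterByExpr and TMM factors, with p adjusted by Benjamini-Hochberg over all names and called under 0.05), with the standard error derived from the F statistic. DESeq2 1.42.0 was an alternative. The fit was also run on counts simulated from the kind of model it assumes, which cannot show whether that model suits these libraries. The 5 ratios tested used a prior count of 0.5, at least 10 counts in every library and exact permutation tests (scipy 1.17.1, Python 3.11.15). The ratio of the miR-365 5p strands was taken from plain counts, with no minimum and no test. Likeness was Pearson's r of log2 CPM. Members, lists and the naming rule were chosen with earlier results of these data known, and the miRNAs named are: every member, the 3 names most like the leading member of each family, and of each list the 3 most abundant entries and every entry past the threshold. miR-107, miR-378, miR-499-5p and miR-1b were named in addition after their values were seen. Aliases of list entries were set after the names were seen. Replicates of a breed differed by a chi-square per degree of freedom of at least 80.3, so that no library was counted as a duplicate.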

Additional observations from a re-analysis of the deposited data

How the results depend on the processing

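The direction of the 6 fitted member differences was the same in 84 of 84 values under other settings, and the side of the threshold in 81, the other 3 being miR-365-3p. The number of members called, 0 of 6, was 1 of 7 with no filter on low counts and 1 of 6 with DESeq2. It was 0 to 1 when single libraries were left out (1 of 7 without QHMM replicate 2). The calls over all names, 28, were 64 with no filter, 49 with DESeq2, 8 with at least 10 counts in every library, 6 with known names only, and 16 to 35 when single libraries were left out (16 without QHMM replicate 3 and without STH replicate 3, 18 without STH replicate 2). Known names only, and the stricter filter, test fewer names, and beyond this the cause was not tested. The adipocyte list gave 1 call with no filter and 0 without any single library. The myogenic list, with 1 call, gave 2 with no filter, 2 with DESeq2, 0 with upper-quartile factors, 0 with at least 10 counts in every library, 0 with known names only, 0 with the replicate block and 0 to 1 with each library left out (0 without QHMM replicate 3 and without each STH library). With the replicate block 26 names were called, 22 shared with the main 28, and no member. Deviations of same-numbered libraries had correlations of 0.064, 0.24 and 0.12, higher than with any other number, but the labels give no pairing and a common number is all these libraries are known to share. The breed difference of the log2 ratio of miR-193a-3p to miR-193a-5p, 0.14, turned to -0.0016 without QHMM replicate 1 and -0.10 without STH replicate 2 (range -0.10 to 0.53). The levels depended on the total used. Out of the counts over all rows, miR-193b-3p had a mean of 1898 CPM and miR-365-3p 1506 CPM. On the same total miR-193a-5p had 122 CPM and miR-193b-5p 56.5 CPM, for both a shift larger than the SD. Depth limits miR-365-2-5p, with 58 counts in all.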
